A study of Mus musculus with 12 samples.

Results

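The 32 genes described here encode the chaperones, folding enzymes, degradation factors and stress sensors of the endoplasmic reticulum (ER) in mouse skin. They were taken by symbol, and all 32 were found among the 52636 genes of the count table and passed the filter on low counts, which left 17993 genes for testing. RNA was sequenced from the skin of BALB/c mice in 4 groups of 3 independent biological samples, 12 libraries in all. Per the methods, females of 8 weeks were shaved a day earlier and injected into the dermis of the back over 2 days. Control mice received vehicle, and LL37 mice received LL37, a peptide cut from the human antimicrobial protein cathelicidin (40 μl of a 320 μM solution). The control + RAPA and LL37 + RAPA groups also received rapamycin, an inhibitor of the kinase complex mTORC1, which the methods describe as intraperitoneal at 4 mg/kg per day without naming the route for the sequenced mice. LL37-injected skin serves as a mouse model of rosacea, a facial skin inflammation. Each library held the RNA of a whole piece of skin, so fewer cells of a type and less RNA per cell cannot be told apart.

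Proteins made for secretion or for membranes enter the ER through the Sec61 channel, are folded there by chaperones and disulfide isomerases, and leave in COPII vesicles. Misfolded proteins are drawn back into the cytosol and degraded. When folding falls behind, 3 sensors in the ER membrane start the unfolded protein response (UPR). IRE1 (gene Ern1) splices the mRNA of the transcription factor XBP1, ATF6 is cut to release its own transcription factor, and PERK (gene Eif2ak3) slows translation and raises the factors ATF4 and CHOP (gene Ddit3). ATF6 and XBP1 act on the ER stress response element (ERSE), which reads CCAAT, then any 9 bases, then CCACG, and on the shorter ERSE-II, which reads ATTGG, any 1 base and CCACG. Fibroblasts, gland cells and plasma cells of the skin all use this machinery.

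Promoter elements are shown first because ERSE is the element through which this pathway is known to act on chaperone genes, although most members held none. RefSeq promoter windows of build GRCm38.p6, from 250 bases before to 50 bases after a gene's start, were found for 26 of the 32 genes. An exact ERSE on either strand stood in 9 of the 26 (34.6%), against 37 of all 27025 genes with a window (0.137%). Those 37 include the members, and outside them it stood in 28 of 26999 (0.104%). The element was chosen for its known role at chaperone genes, so this excess was in part given by that choice. Of 142 other ER pathway genes, compared further below, 112 had a window, and 0 of these held an ERSE. The members' sites are printed 5′ to 3′ in the orientation of the element with 5 bases on each side, and the capitals mark the 2 fixed blocks of the motif.
Hspa5, chr2:34772025-34772043: cttcaCCAATcggaggcctCCACGacggg
Hsp90b1, distal, chr10:86705638-86705656: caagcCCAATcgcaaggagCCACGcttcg
Hsp90b1, proximal, chr10:86705533-86705551: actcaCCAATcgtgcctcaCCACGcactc
Dnajc3, chr14:118937827-118937845: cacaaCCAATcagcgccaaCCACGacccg
Creld2, chr15:88819520-88819538: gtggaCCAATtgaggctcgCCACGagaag
Calr, chr8:84847075-84847093: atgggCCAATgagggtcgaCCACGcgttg
Canx, chr11:50325800-50325818: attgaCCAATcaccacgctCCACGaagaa
Pdia6, chr12:17266491-17266509: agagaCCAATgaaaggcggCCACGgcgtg
Syvn1, chr19:6046532-6046550: cgcaaCCAATcggcggtagCCACGggaac
Derl3, chr10:75893242-75893260: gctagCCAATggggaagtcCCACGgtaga
Herpud1, ERSE-II, chr8:94386377-94386387: cgctgATTGGgCCACGttgga

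Coordinates are those of the motif without its flanks. The ERSE sites of Calr, Creld2 and Derl3 and the proximal site of Hsp90b1 lay in the opposite orientation to the gene, and the others in the same orientation. Measured to the first motif base, they began between 212 bases (Hsp90b1, distal) and 44 bases (Syvn1) before the RefSeq start, and that of Hspa5 began 65 bases before it. The Hspa5 site lies inside the gene as drawn by GENCODE M21, whose start is further upstream. ERSE-II was found in Herpud1, 52 bases before the start, and in Dnajb11 just after its start. It stood in 0 of the 112 other pathway genes and in 12 of all 27025 genes (0.0444%). The XBP1 core TGACGTGG was found in Sec24d among the 26, in 7 of the 112 other pathway genes (6.25%) and in 193 of all genes (0.714%). It shares its last bases, read from the other strand, with the CCACG of the ERSE, but no site was counted under both. The element bound by ATF4 together with C/EBP factors is TGATGCAAT. It was found in 0 of the 26, in 2 of the 112 other pathway genes (1.79%) and in 60 of all genes (0.222%). Such matches are a description of the letters in these windows, and binding was not measured.

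**Figure D1:**
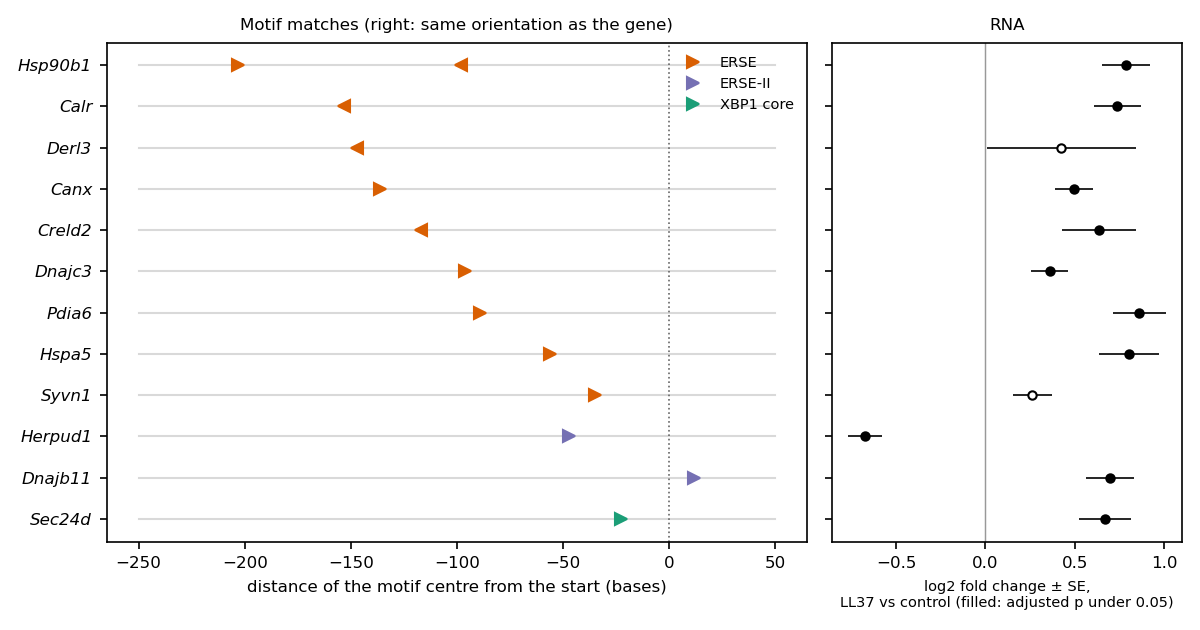
Positions of the motif matches before the RefSeq start (left, in bases, 0 is the start, arrow direction gives the orientation relative to the gene) and the log2 fold change ± SE of the same 12 genes in LL37 vs control (right, filled points passed an adjusted p of 0.05). Herpud1 lies at −0.67 and the other 11 genes lie above 0.

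The 250 bases before the RefSeq start are given for Creld2, a secreted ER stress protein that rose in LL37 skin, and for Herpud1, a membrane protein that organises ER-associated degradation and was the only member that fell. They are printed on the plus strand, which is the strand of both genes, with the blocks of ERSE (Creld2, here read from the other strand) and ERSE-II (Herpud1) in capitals.
Creld2, chr15:88819396-88819645: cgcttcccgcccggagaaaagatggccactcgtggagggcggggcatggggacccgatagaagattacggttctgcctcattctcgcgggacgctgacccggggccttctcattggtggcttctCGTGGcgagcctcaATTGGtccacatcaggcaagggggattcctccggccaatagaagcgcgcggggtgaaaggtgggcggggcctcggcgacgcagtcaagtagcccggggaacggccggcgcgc
Herpud1, chr8:94386179-94386428: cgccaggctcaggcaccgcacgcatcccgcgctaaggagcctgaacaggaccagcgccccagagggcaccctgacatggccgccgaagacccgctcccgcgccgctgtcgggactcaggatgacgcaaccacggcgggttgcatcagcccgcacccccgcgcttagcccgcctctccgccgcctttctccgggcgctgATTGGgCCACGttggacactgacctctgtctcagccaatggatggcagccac

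Depth was between 15734559 and 23271784 counts per library, and levels are given as CPM (counts scaled to a library total of 1000000) after TMM normalization. On the first principal component, which held 68.3% of the variance, LL37 replicate 3 scored 64.4 and the other 2 LL37 libraries 129 and 133, against at most 29.8 in the other groups. This library was also the lowest of the LL37 group for 22 of the 23 members that rose. The makeup of the tissue differed between groups. The summed level of 24 skeletal muscle genes was 42031 to 60853 CPM in control, 41.8 to 958 CPM in LL37 and 3480 to 7531 CPM in LL37 + RAPA, and all 22 muscle genes tested were lower in LL37 than in control. Neutrophil genes summed to 52.5 to 128 CPM in control, to 2067 and 2833 CPM in LL37 replicates 1 and 2 and to 317 CPM in LL37 replicate 3, and all 9 tested were higher. Macrophage genes rose in 10 of 10 and genes of activated epidermis in 7 of 8 tested. Adipocyte genes fell in 9 of 10, and 12 epidermal genes, which mark the main cell type of the labelled skin, summed to between 32243 and 50074 CPM in every library.

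LL37 vs control addresses how the injected peptide altered the ER genes of the skin. Most members were higher in LL37 skin, by less than 2-fold in nearly every case. At an adjusted p under 0.05 (edgeR's quasi-likelihood test, Benjamini-Hochberg over all genes), 23 of the 32 rose, where 21.0% of all genes tested were called higher. Only 1 fell (Herpud1), where 21.6% of all genes were called lower. The median log2 fold change was 0.62 over the members and 0.00 over all genes. Sdf2l1 alone also passed a log2 fold change of 1, against 8.73% of all genes. The 23 were spread unevenly over the roles. They took in 8 of 9 genes of the Hsp70 and Hsp90 machinery, both lectin chaperones, 4 of 4 disulfide isomerases and 5 of 5 genes of translocation, signal cleavage and export, but 2 of 8 genes of degradation and 2 of 4 among the sensors and Xbp1.

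**Figure D2:**
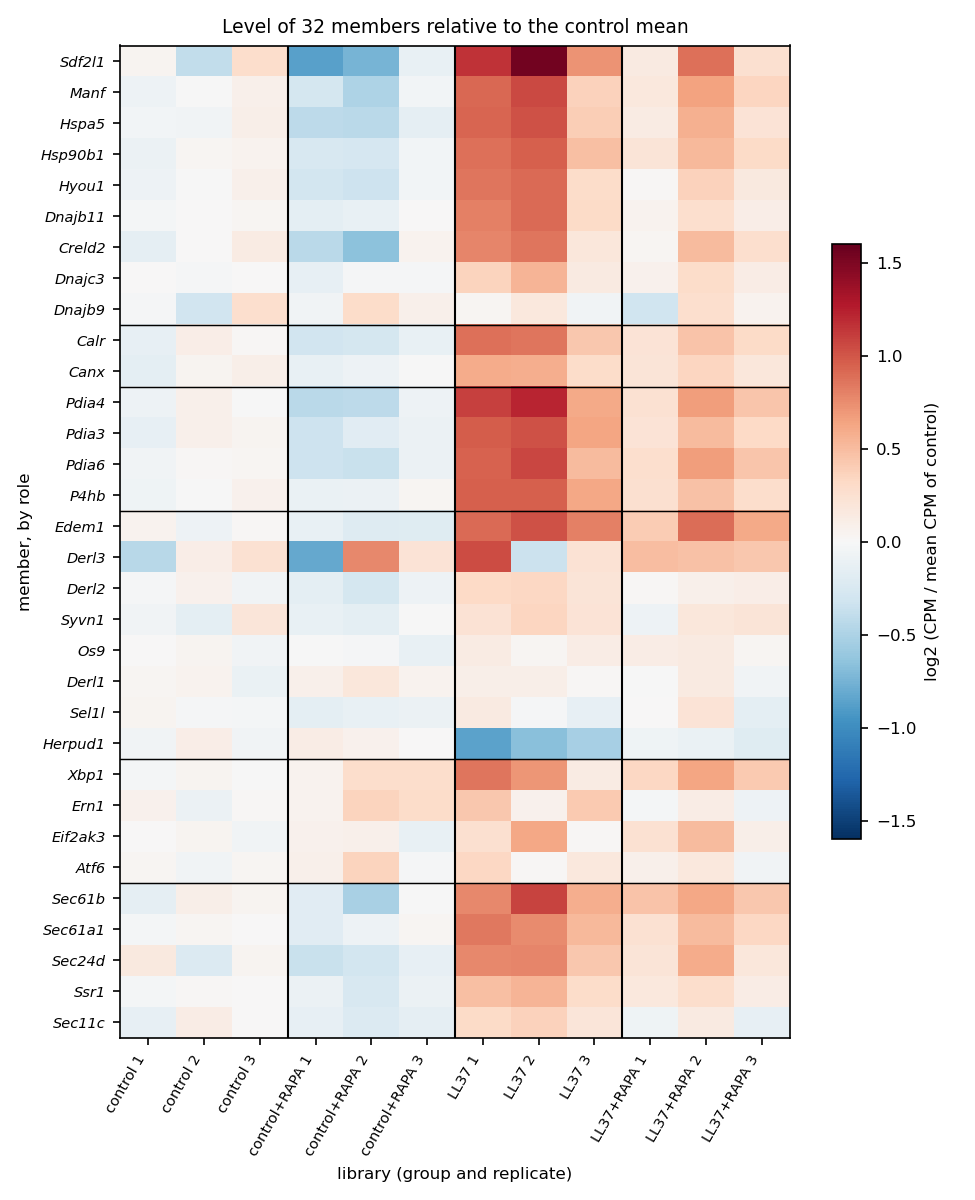
Level of the 32 members in each of the 12 libraries, as the log2 of CPM over the mean CPM of control, with members in rows by role and libraries in columns by group. LL37 replicates 1 and 2 are the darkest columns, and Herpud1 is blue in all 3 LL37 libraries.

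Members took 0.381%, 0.407% and 0.423% of all counts in the control libraries, and 0.688%, 0.732% and 0.569% in LL37. The LL37 libraries lay above every other library except that LL37 replicate 3 was below LL37 + RAPA replicate 2. LL37 + RAPA libraries held 0.494%, 0.591% and 0.524%, and control + RAPA libraries 0.326%, 0.353% and 0.386%. With the muscle genes taken out of the totals, the group means were 0.425% ± 0.0209 (SD, n = 3) in control and 0.663% ± 0.0842 in LL37, against 0.404% ± 0.0212 and 0.663% ± 0.0845 with them. In control skin the highest levels per kilobase of exon were those of Calr, at 168 CPM per kilobase, P4hb at 126 and Pdia3 at 91.7. The lowest were Derl3 at 0.622 and Eif2ak3 at 3.9. Chaperones and isomerases thus stood above the stress sensors by this scale, whose Atf6 and Ern1 were at 5.02 and 5.03.

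Of the Hsp70 and Hsp90 machinery, 8 of 9 genes rose. Hspa5 (BiP, the ER Hsp70 that binds unfolded chains and holds the sensors inactive, chr2:34771970-34777547, plus strand) was at 359.7, 358 and 398 CPM in control and at 708, 755 and 487 CPM in LL37. The groups did not overlap, and LL37 replicate 3 lay closest to control. The log2 fold change was 0.80 ± 0.17 (SE), with an adjusted p of 0.0028 by edgeR. Hsp90b1 (GRP94, the ER Hsp90, chr10:86690209-86705509, minus strand) was at 231, 252 and 257 CPM in control and 454, 477 and 344 CPM in LL37, again without overlap. Its log2 fold change was 0.79 ± 0.13, with an adjusted p of 0.000786. Its exons overlap those of other annotated genes, and whether reads were counted by strand is not given in the sources used here.

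Sdf2l1, which works with BiP and an ER J-domain protein and keeps clients soluble, had the largest fold change of the members (chr16:17130138-17132383, minus strand). It was at 26.6, 19.6 and 31.4 CPM in control and at 57.8, 75.7 and 42.5 CPM in LL37, a log2 fold change of 1.18 ± 0.28 (adjusted p = 0.00529, edgeR). All LL37 libraries lay above all control libraries, although both groups were widely spread. Hyou1 (the nucleotide exchange factor GRP170) changed by 0.71 on the log2 scale, Manf (a secreted protein that binds BiP) by 0.81 and Creld2 by 0.64, each past the test. Among the J-domain partners of BiP, Dnajb11 rose by 0.70 ± 0.13 and Dnajc3 by 0.36 ± 0.10. Dnajb9, which helps BiP to hold IRE1 inactive, did not pass, at 33.2, 27.1 and 40.5 CPM in control and 34.3, 37.9 and 32.4 CPM in LL37. Its values overlapped in every group, with a log2 fold change of 0.05 ± 0.17 in LL37 vs control.

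The lectin chaperones, which bind glycoproteins with a trimmed sugar and retain them until folded, both rose. Calr (calreticulin, the soluble form) changed by 0.74 ± 0.13 and Canx (calnexin, its membrane-bound relative) by 0.50 ± 0.11 on the log2 scale, with adjusted p of 0.00101 and 0.00309 by edgeR. In CPM, Calr went from 439.7, 521 and 488 in control to 886, 875 and 653 in LL37. The disulfide isomerases, which form and rearrange the disulfide bonds of secreted proteins, had the narrowest range of any role, from 0.85 to 0.99. P4hb, which is also a subunit of collagen prolyl 4-hydroxylase, was at 346, 359.9 and 379.8 CPM in control and 701, 703 and 555 CPM in LL37 (log2 fold change 0.85 ± 0.11, adjusted p = 0.000154, edgeR). Pdia4 was at 64.5, 71.8 and 68.0 CPM in control and 145, 158 and 103 CPM in LL37 (0.99 ± 0.16, adjusted p = 0.000627). Pdia3, the partner of calnexin and calreticulin, was at 264, 304 and 296 CPM in control and 562, 581 and 445 CPM in LL37 (0.88 ± 0.13, adjusted p = 0.000251). No isomerase overlapped between these groups, and Pdia6 had a log2 fold change of 0.86. Exons of Pdia3 and Pdia6 overlap protein-coding genes on the other strand, as do those of Manf and Syvn1. Exons of Manf also overlap those of Rbm15b on the same strand. Summed collagen and fibroblast genes ranged from 3044 to 6554 CPM in control and from 4303 to 5943 CPM in LL37. Of the 10 genes of that list Lum (log2 fold change 0.88, adjusted p = 0.0048) and Pdgfra (0.96, adjusted p = 0.0219) were higher, Dpt was lower (a mean of 78.8 CPM beside 239 CPM in control) and the other 7 overlapped between the groups. The part of fibroblasts in the level of P4hb was not tested.

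ER-associated degradation was the role in which members moved apart. Edem1, a lectin that extracts misfolded glycoproteins for degradation (chr6:108828641-108859356, plus strand), was at 58.7, 53.6 and 57.1 CPM in control and at 105, 114 and 98.4 CPM in LL37. It rose by 0.91 ± 0.12 on the log2 scale (adjusted p = 0.00012, edgeR), and here LL37 replicate 3 was close to the other LL37 libraries. Herpud1 (chr8:94386438-94395377, plus strand) was at 109, 122 and 109.6 CPM in control and at 62.9, 71.8 and 79.0 CPM in LL37. All LL37 libraries lay below all libraries of the other groups, and the log2 fold change was −0.67 ± 0.09 (adjusted p = 0.000225). Derl2, a channel component of this system, rose by 0.29 ± 0.08 (adjusted p = 0.0156), with exons that overlap Mis12 on the other strand.

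The remaining degradation genes did not pass the test. Log2 fold changes were 0.26 ± 0.11 for Syvn1 (the ubiquitin ligase HRD1, adjusted p = 0.0765 by edgeR), 0.00 ± 0.10 for its partner Sel1l, 0.10 ± 0.08 for the lectin Os9 and 0.07 ± 0.08 for Derl1. Derl3, a paralogue of Derl1 and Derl2 that secretory cells use, was at 0.916, 1.33 and 1.47 CPM in control, at 2.56, 0.979 and 1.46 CPM in LL37, at 1.75, 1.72 and 1.67 CPM in LL37 + RAPA and at 0.704, 2.12 and 1.44 CPM in control + RAPA. These levels were the lowest among the members, they overlapped between LL37 and control, and a difference was not detectable at this depth (0.43 ± 0.42, adjusted p = 0.44). Plasma cells are a rich source of this machinery. Of 12 genes on a plasma cell list, Jchain and Igkc were at no more than 0.163 and 0.593 CPM in any library. Ighm had means of 13.3 CPM in control and 6.17 CPM in LL37, with overlap. Of the 6 genes tested, 1 was higher in LL37 (Sdc1) and 1 lower (Irf4, log2 fold change −2.36 ± 0.47, adjusted p = 0.00202, edgeR). Igha lay above control without overlap but did not pass (0.99 ± 0.38, adjusted p = 0.0556, edgeR). Mzb1 lay below control without overlap and did not pass either (−1.64 ± 0.68, adjusted p = 0.073, edgeR). Cd79a, too low to be tested, was also below control without overlap. The summed plasma cell list was between 505 and 761 CPM throughout and came mainly from Sdc1, which keratinocytes also make, and the part of plasma cells in the members' levels was not tested.

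Of the genes for the sensors and XBP1, Xbp1 was the one whose LL37 libraries all lay above control. It was at 183, 193 and 187 CPM in control and 338, 306 and 205 CPM in LL37 (chr11:5520659-5525893, plus strand). Replicate 3 was thus near the control level, and the log2 fold change was 0.59 ± 0.16 (adjusted p = 0.011, edgeR), or 0.81 without that library and 0.45 without LL37 replicate 1, when the adjusted p was 0.0543. Counts per gene do not separate spliced from unspliced Xbp1 mRNA. Ern1 was at 43.3, 38.5 and 41.7 CPM in control and 55.6, 43.1 and 55.2 CPM in LL37, which overlapped. Its adjusted p was 0.0499 and its log2 fold change 0.32 ± 0.12, a call that held in 5 of 20 alternative analyses, with adjusted p from 0.00738 to 0.168. It was lost when any of 11 libraries was left out, all but LL37 replicate 2.

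Eif2ak3 was at 23.7, 24.1 and 22.7 CPM in control and 28.0, 35.9 and 23.9 CPM in LL37, with overlap. Atf6 was at 47.2, 44.6 and 47.3 CPM in control and 58.3, 46.9 and 52.1 CPM in LL37, also with overlap. Neither passed the test, with log2 fold changes of 0.32 ± 0.15 and 0.18 ± 0.12 and adjusted p of 0.115 and 0.24 (edgeR). Sensor mRNA is a separate matter from sensor activity, which lies in the protein and was not measured.

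All 5 genes of entry into and exit from the ER rose. Sec61a1 and Sec61b, subunits of the translocation channel, changed by 0.71 ± 0.10 and 0.82 ± 0.15 on the log2 scale (adjusted p = 0.000291 and 0.00118, edgeR). Sec61a1 was at 92.9, 97.2 and 95.2 CPM in control and 171, 160.3 and 137 CPM in LL37, without overlap. Ssr1, a subunit of the translocon-associated complex, rose by 0.44, Sec24d, a cargo adaptor of the COPII coat, by 0.67 and Sec11c, a catalytic subunit of signal peptidase, by 0.29. The calls for Sec11c, Creld2, Derl2, Dnajc3, Xbp1 and Ern1 were lost in at least 1 of the 20 alternative analyses, and those of the other 18 called members in 0. Leaving out single libraries lost Creld2 (control 1 or 2, LL37 1 or 2), Derl2 (control 3, LL37 1) and Sec11c (control 1 or 3, LL37 1 or 2), with adjusted p of at most 0.0929, 0.0725 and 0.114 over all alternatives.

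**Figure D3:**
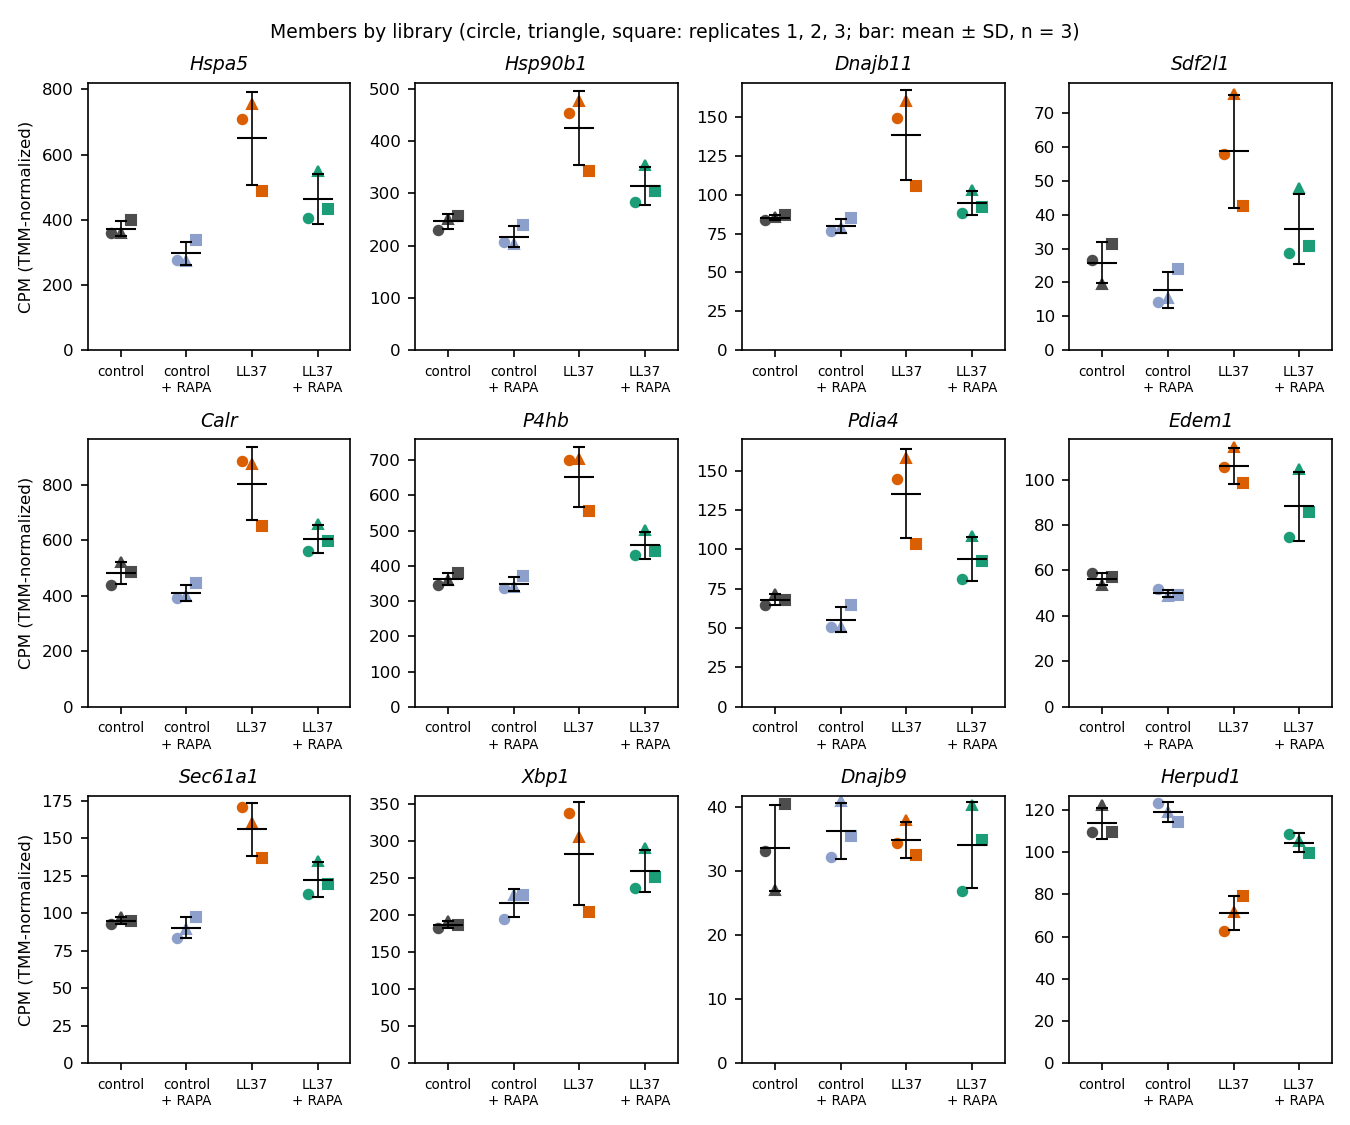
CPM of 12 members in each library by group, with replicates as circles (1), triangles (2) and squares (3) and black bars for the mean ± SD over 3 libraries. LL37 replicate 3 (square) lies below the other LL37 libraries in most panels, for example at 487 CPM for Hspa5, and Dnajb9 overlaps between all groups.

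Promoter elements can be set beside these changes. Of the 9 members with an ERSE, 7 rose and 0 fell in LL37 vs control, where 21.0% of all genes tested were called higher and 21.6% lower. The median log2 fold change of the 9 was 0.64, with a range from 0.26 to 0.86. Those not called were Syvn1 and Derl3. Of the 17 members with a window and no exact ERSE, 12 rose and 1 fell, with a median of 0.59. Among 28 other genes of the genome with an ERSE, 9 were tested, 3 rose and 1 fell, few genes to set beside the same shares. The median of these 9 was −0.03. The genes that rose were Adcy3, Alg12 and Hnrnpa3, and Acacb fell. Both members with ERSE-II passed the test, in opposite directions (Dnajb11 at 0.70 and Herpud1 at −0.67). These counts describe the lists and carry no test.

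LL37 vs LL37 + RAPA addresses what rapamycin did to LL37-injected skin. In this comparison 9 members were higher in LL37, where 11.8% of all genes were called higher, and 1 was lower (Herpud1), where 12.4% were called lower. The 9 were Hsp90b1, Hyou1, Dnajb11, Calr, Pdia3, Pdia4, P4hb, Sec61a1 and Sec11c. The median log2 fold change over the members was 0.31, beside 0.00 over all genes. Their number rested on single libraries. It was 21 without LL37 replicate 3, 1 without LL37 replicate 1, 4 without LL37 replicate 2, 1 without LL37 + RAPA replicate 1 and 3 without LL37 + RAPA replicate 3. It was 14 by DESeq2 and 2 when only the compared groups were fitted. The number called higher over all genes moved as well, from 2120 to 3200 without LL37 replicate 3 and to 896 without LL37 replicate 1. It was 1401 without LL37 replicate 2, 908 without LL37 + RAPA replicate 1 and 1140 without LL37 + RAPA replicate 3. By DESeq2 it was 2623, and 1197 with the compared groups only.

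P4hb and Herpud1 kept their calls in all 20 alternative analyses. P4hb was at 430.3, 503 and 441 CPM in LL37 + RAPA, below its 555 to 703 CPM in LL37 (log2 fold change 0.51 ± 0.11, adjusted p = 0.0087, edgeR). Herpud1 was at 108, 105 and 99.6 CPM in LL37 + RAPA, above its 62.9 to 79.0 CPM in LL37, and the log2 fold change was −0.55 ± 0.09 (adjusted p = 0.00314). The LL37 + RAPA level of Herpud1 was just below the control mean of 114 CPM. Muscle genes summed to at most 7531 CPM there and to at least 42031 CPM in control. Neutrophil, macrophage and activated epidermis genes were higher in LL37 than in LL37 + RAPA in 3 of 9, 6 of 10 and 6 of 8 tested. The part of these tissues and cells in the levels of the members was not tested.

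Pdia3 and Dnajb11 also separated the groups. Pdia3 was at 334, 409 and 359 CPM in LL37 + RAPA (0.53 ± 0.12, adjusted p = 0.0123, edgeR). Dnajb11 was at 149, 160.2 and 106 CPM in LL37 and at 88.5, 103 and 91.7 CPM in LL37 + RAPA (0.55 ± 0.13, adjusted p = 0.0135). For Dnajb11, LL37 replicate 3 exceeded the highest LL37 + RAPA library only narrowly. Both lost their call without LL37 replicate 1 or without LL37 + RAPA replicate 1, and Dnajb11 also with the compared groups only. Over all alternatives the adjusted p of Pdia3 and Dnajb11 was at most 0.0594 and 0.0607.

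The other calls came with overlap or small differences. Hyou1 was at 197, 205 and 135 CPM in LL37 and at 111, 141 and 122 CPM in LL37 + RAPA (0.52 ± 0.15, adjusted p = 0.0299, edgeR). Sec61a1 was at 113, 135 and 119 CPM in LL37 + RAPA (0.35 ± 0.10, adjusted p = 0.0313). Hsp90b1 was at 284, 354 and 305 CPM there (0.43 ± 0.13, adjusted p = 0.0356). For Hyou1 and Hsp90b1 the highest LL37 + RAPA library, replicate 2, exceeded LL37 replicate 3. Pdia4 was at 81.0, 109 and 92.6 CPM in LL37 + RAPA (0.52 ± 0.16, adjusted p = 0.0361), again with overlap. Calr (0.41, adjusted p = 0.0417) and Sec11c (0.31, adjusted p = 0.0429) were the nearest to the threshold, and they passed in 9 and 10 of the 20 alternatives. All 6 of these members lost their call when LL37 replicate 1, LL37 replicate 2, LL37 + RAPA replicate 1 or LL37 + RAPA replicate 3 was left out. They also lost it with the compared groups only, and the adjusted p went up to 0.156 over all alternatives. By library size only Hsp90b1, Calr, Sec61a1 and Sec11c lost it. Calr was also lost without LL37 + RAPA replicate 2, Calr and Sec11c without control replicate 3 or control + RAPA replicate 1, and Sec11c without control + RAPA replicate 3.

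Hspa5, at 407, 551 and 434 CPM in LL37 + RAPA, overlapped with LL37 and had a log2 fold change of 0.49 ± 0.17 (adjusted p = 0.0563, edgeR). Sdf2l1, at 28.7, 47.8 and 30.9 CPM, had the largest difference of the members, 0.71 ± 0.27, with an adjusted p of 0.0786. Xbp1 was at 237, 291 and 252 CPM in LL37 + RAPA, and its difference was 0.12 ± 0.16 (adjusted p = 0.603). Edem1 was at 74.6, 105 and 85.7 CPM in LL37 + RAPA, and its difference was 0.26 ± 0.11 (adjusted p = 0.115). Without LL37 replicate 3 Hspa5 and Sdf2l1 differed by 0.65 and 0.90 past the test. Among the sensors, Ern1 was at 40.3, 44.5 and 39.0 CPM in LL37 + RAPA (0.31 ± 0.12, adjusted p = 0.0762), Eif2ak3 at 27.7, 33.4 and 25.0 CPM (0.03 ± 0.15) and Atf6 at 49.2, 52.1 and 44.4 CPM (0.11 ± 0.12). These 3 did not pass the test.

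**Figure D4:**
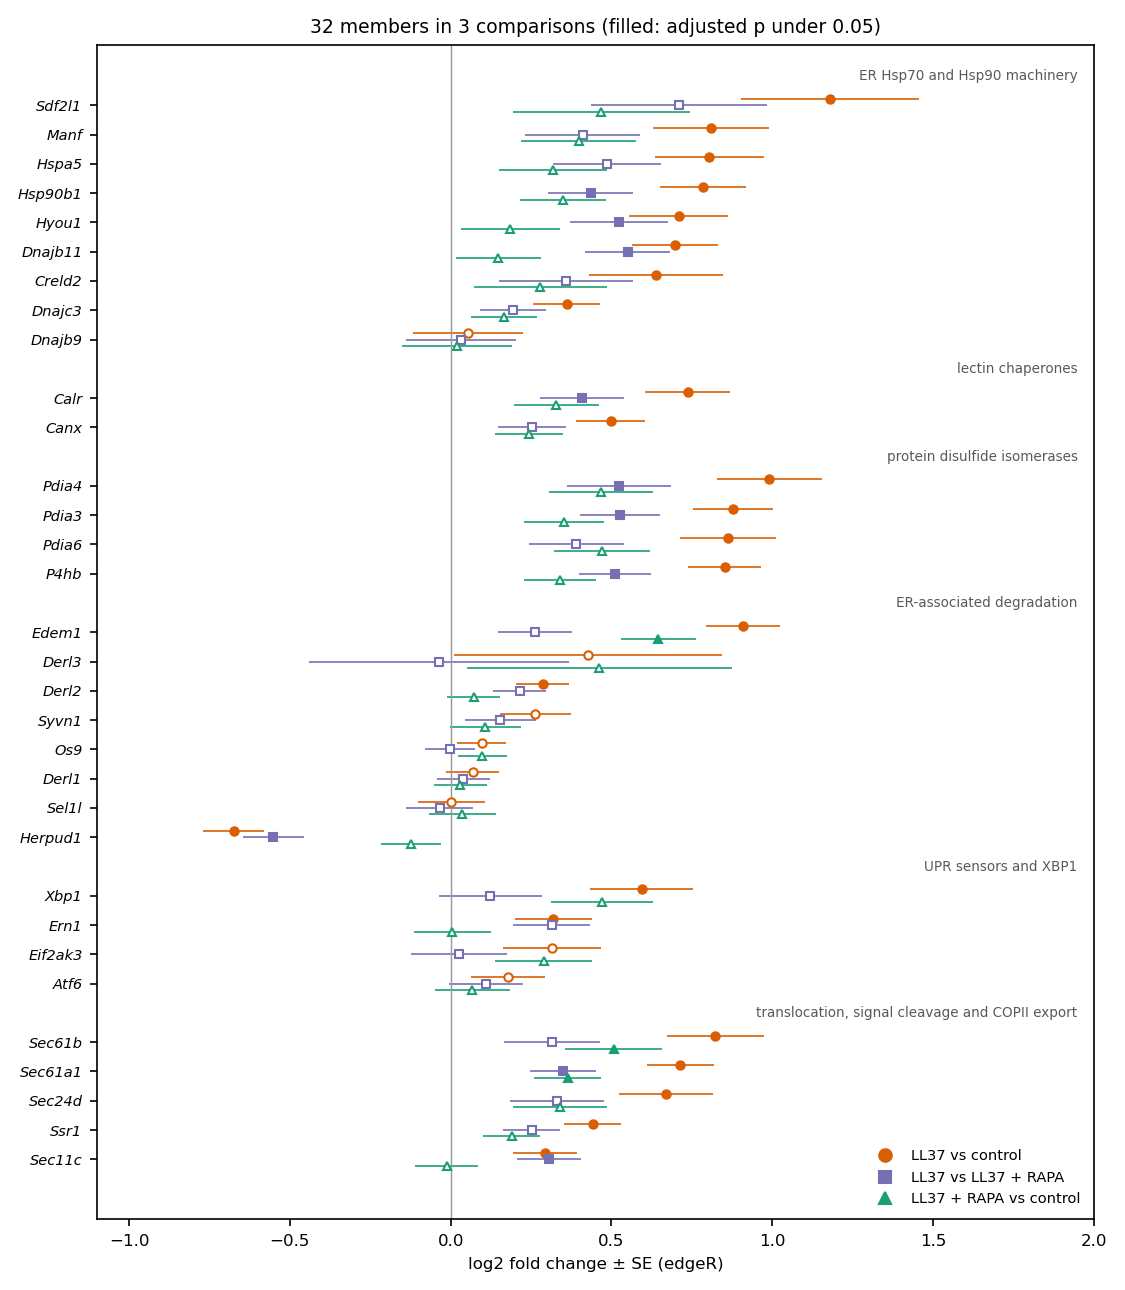
Log2 fold change ± SE of the 32 members by role in LL37 vs control (circles), LL37 vs LL37 + RAPA (squares) and LL37 + RAPA vs control (triangles), where filled symbols passed an adjusted p of 0.05. Filled symbols number 24, 10 and 3, and Herpud1 is the only member called below 0.

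LL37 + RAPA vs control sets skin given LL37 and rapamycin against skin given neither, so both treatments differ between the groups. The injection response under rapamycin would be LL37 + RAPA vs control + RAPA, which was not tested. In control + RAPA vs control, log2 fold changes were negative for 24 of the 32 members and positive for 8. Hspa5 averaged 464 CPM in LL37 + RAPA, 372 CPM in control and 297 CPM in control + RAPA. In LL37 + RAPA vs control only 3 members passed the test, all higher, where 5.03% of all genes were called higher and 9.02% lower. They were Edem1 (log2 fold change 0.65 ± 0.12, adjusted p = 0.00302, edgeR), Sec61a1 (0.36 ± 0.10, adjusted p = 0.0373) and Sec61b (0.51 ± 0.15, adjusted p = 0.0436), the last at 32.8, 38.9 and 37.5 CPM in control and 49.8, 56.1 and 49.2 CPM in LL37 + RAPA. At an unadjusted p under 0.05, 13 were higher and 0 lower, and DESeq2 called 8 higher and 0 lower. Over all genes 4930 passed unadjusted, in either direction, and DESeq2 called 1333 higher and 1890 lower. With scaling by library size only, which shifted the median of all genes by 0.13 on the log2 scale, 13 members were called higher, and the calls over all genes went from 905 higher and 1623 lower to 1985 and 1254. The libraries of the groups did not overlap in 20 of the 32 members, against 36.4% of all genes. The count of 3 became 11 without LL37 replicate 3, 5 without LL37 replicate 2 and 1 without each of control replicates 1 to 3 or LL37 + RAPA replicates 2 or 3. Over all genes, the 905 called higher became 1563 without LL37 replicate 3 and 1111 without LL37 replicate 2. They became 447 to 705 without 1 control library, and 313 and 482 without LL37 + RAPA replicates 2 and 3. For 22 of the 23 members that rose in LL37, the LL37 + RAPA mean lay between those of control and LL37. These members were picked by high values in LL37, so a lower mean in another group is partly given by that choice. The share over all genes that rose is not given here. The 3 comparisons share libraries, so these values are not separate evidence.

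Side by side, the log2 fold changes against control were 0.91 in LL37 and 0.65 in LL37 + RAPA for Edem1, 0.59 and 0.47 for Xbp1, and 0.82 and 0.51 for Sec61b. They were 0.70 and 0.15 for Dnajb11, 0.71 and 0.19 for Hyou1, and 0.29 and −0.01 for Sec11c. For Hspa5 they were 0.80 and 0.32. Of the LL37 + RAPA values listed here, those of Edem1 and Sec61b passed the test and the others did not. In control + RAPA vs control, Xbp1 changed by 0.21 ± 0.16 and Hspa5 by −0.33 ± 0.17, neither past the test. The interaction was called for 0 of the 32 members, and whether these genes differ in the effect of rapamycin was not tested.

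Rapamycin alone did not move these genes past the test. In control + RAPA vs control 0 of 32 members were called, where 0.0% of all genes were called by edgeR. At an unadjusted p under 0.05 the number of members was 0, against 1556 of all genes, and DESeq2 called 0 members and 35 genes higher and 67 lower. Log2 fold changes ran from −0.54 (Sdf2l1, at 14.2, 15.5 and 23.9 CPM in control + RAPA) to 0.24 (Ern1, at 42.7, 52.8 and 50.6 CPM), with a median of −0.13 over the members. Hspa5 was at 277, 275 and 338 CPM in control + RAPA, below all control libraries, with a log2 fold change of −0.33 ± 0.17 (adjusted p = 0.629).

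The other members with values by library gave small differences in control + RAPA vs control. Hsp90b1 was at 207, 204 and 240.3 CPM in control + RAPA, Pdia3 at 229, 255 and 269 CPM and Pdia4 at 50.5, 50.9 and 64.5 CPM, each overlapping with control. P4hb was at 336, 339 and 369.8 CPM there and Sec61a1 at 83.7, 89.7 and 97.5 CPM, also with overlap. Dnajb11 was at 83.5, 85.3 and 86.8 CPM in control and 76.5, 78.3 and 85.2 CPM in control + RAPA, and Hyou1 at 104, 109 and 115 CPM in control and 89.4, 86.8 and 106 CPM in control + RAPA. The libraries of Edem1, at 51.8, 48.9 and 49.4 CPM, all lay below control, and those of Xbp1, at 194.9, 228 and 228 CPM, all lay above it, and neither passed the test. Herpud1 was at 123, 119 and 114 CPM in control + RAPA, Eif2ak3 at 24.8, 24.9 and 21.6 CPM and Atf6 at 49.1, 59.5 and 45.9 CPM. These last 3 overlapped with control.

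The interaction of LL37 and RAPA, which asks whether rapamycin changed LL37-injected skin differently from control skin, was called for 0 of 32 members by edgeR, where 3.28% of all genes were called. It is coded as the effect of rapamycin in LL37 skin minus that in control skin. Of all genes, 387 were called with a positive and 203 with a negative interaction, or 518 and 138 with scaling by library size only, which shifted the median by 0.11. At an unadjusted p under 0.05, 4 of the 32 members passed, not above the share over all genes (4049 of 17993). These 4 members were Herpud1 (0.49 ± 0.13, adjusted p = 0.0664), Ern1 (−0.56 ± 0.17, adjusted p = 0.088), P4hb (−0.46 ± 0.16, adjusted p = 0.121) and Dnajb11 (−0.46 ± 0.19, adjusted p = 0.179). DESeq2 called the first 3 of them. Without LL37 replicate 3, Herpud1, P4hb, Dnajb11 and Xbp1 were called, and without LL37 replicate 2, Ern1. Calls over all genes were 1071 positive and 674 negative by DESeq2. Without LL37 replicate 3 they were 1790 and 1355, and without LL37 replicate 2 they were 172 and 183.

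Other genes of the ER pathway, 142 in 6 lists outside the 32, were compared in the same fit, and 139 of them were tested. In LL37 vs control 63 rose and 15 fell, where 21.0% of all genes were called higher and 21.6% lower, and the median log2 fold change was 0.27 beside 0.00 over all genes. The same shares stand for each of the 6 lists. Of 27 other translocation and glycosylation genes, 17 rose and 2 fell. Ostc, a subunit of the oligosaccharyltransferase, changed by 0.98 ± 0.13, Tram2 by 0.77 ± 0.22 and Ssr2, a partner of Ssr1, by 0.71 ± 0.11. Of 25 other genes of COPII and early transport, 14 rose and 2 fell. Sec23b, of the inner coat, rose by 0.67 ± 0.12 and the small GTPase gene Arf4 by 0.64 ± 0.10, whereas Sar1b, which encodes the GTPase that starts the coat, was at 189.8, 180.0 and 179 CPM in control and 86.2, 70.0 and 93.1 CPM in LL37. The log2 fold change of Sar1b was −1.14 ± 0.11 (adjusted p = 1.57e-05, edgeR), and in LL37 + RAPA it was at 105, 93.6 and 101 CPM. For Sar1b the libraries of both LL37-injected groups lay below those of control. Adipocyte genes summed to 1738 to 3061 CPM in control, 524 to 1043 CPM in LL37 and 3042 to 3247 CPM in LL37 + RAPA, and their part in the Sar1b level was not tested.

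Among 32 tested genes of the other folding and oxidation list, 18 rose and 2 fell. Ero1l, the oxidase that recharges the disulfide isomerases, was at 16.6, 17.7 and 22.2 CPM in control, at 125, 104 and 77.7 CPM in LL37 and at 21.3, 30.0 and 27.6 CPM in LL37 + RAPA. The log2 fold change was 2.44 ± 0.19 against control and 1.96 ± 0.18 against LL37 + RAPA (adjusted p = 3.91e-06 and 0.000524, edgeR), and the LL37 libraries were far above all others. Fkbp11, a prolyl isomerase of secretory cells, rose by 1.56 ± 0.19 and Calr3, a calreticulin paralogue, fell by 1.53 on the log2 scale, at no more than 4.74 CPM in any library. The KDEL receptors return escaped chaperones to the ER. Kdelr2 changed by 0.67 ± 0.12 and Kdelr3 by 1.21 ± 0.17, both past the test, and Kdelr1 had a value of 0.15 ± 0.07 (adjusted p = 0.104). Kdelr3 was at 18.5, 20.0 and 20.3 CPM in LL37 + RAPA, next to 20.7, 24.3 and 19.9 CPM in LL37 and 11.6, 7.53 and 8.84 CPM in control.

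Of 24 degradation genes outside the members, 3 rose and 6 fell, with a median log2 fold change of 0.00. Beside the shares of all genes called, 21.0% higher and 21.6% lower, these counts are near the background. March6, an ER ubiquitin ligase, fell by 0.54, Ube2g2, a ubiquitin-conjugating enzyme, by 0.50 and Fam8a1, a partner of HRD1, by 0.46 on the log2 scale. Of 15 other UPR transducers tested, 4 rose and 2 fell, which is also near those shares. Nfyb, a subunit of the factor NF-Y that binds the CCAAT of the ERSE, was at 86.0, 95.3 and 41.1 CPM in LL37 and at 31.3, 36.1 and 31.7 CPM in control (2.24-fold, adjusted p = 0.00255, edgeR). LL37 replicate 3 was much closer to control than the other LL37 libraries. Serp1, which protects new membrane proteins, rose by 0.91 ± 0.11, and Wfs1, the ER membrane protein wolframin, fell by 0.91.

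The PERK, ATF4 and CHOP branch gave a mixed picture. Of 16 genes, 7 rose and 1 fell in LL37 vs control, where 21.0% of all genes were called higher and 21.6% lower. The factors themselves did not pass the test by edgeR. Atf4 was at 118, 123 and 175 CPM in control and 154, 151 and 168 CPM in LL37 (log2 fold change 0.18 ± 0.17), Ddit3 at 19.7, 15.8 and 26.0 CPM in control and 25.1, 26.5 and 26.3 CPM in LL37 (0.34 ± 0.19). The libraries of the groups overlapped for both. Trib3, a pseudokinase induced by CHOP, had a value of 0.61 ± 0.28 (adjusted p = 0.0966) and Ppp1r15a (GADD34, which restores translation) one of 0.19 ± 0.14.

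Single genes of this list moved in opposite directions. Asns, the asparagine synthetase gene and a target of ATF4, was at 20.5, 25.4 and 24.4 CPM in control, at 64.5, 64.0 and 34.0 CPM in LL37 and at 22.8, 26.3 and 23.4 CPM in LL37 + RAPA (1.21 ± 0.21 in LL37 vs control, adjusted p = 0.000813, edgeR). Eif2ak2, the interferon-induced kinase PKR that shares its substrate with PERK, rose by 1.64 ± 0.22. Chac1, an enzyme that degrades glutathione and is induced through ATF4 and CHOP, was at 39.9, 30.7 and 31.2 CPM in control, at 6.63, 5.2 and 8.47 CPM in LL37 and at 6.26, 6.26 and 6.89 CPM in LL37 + RAPA. Its log2 fold change was −2.32 ± 0.21 in LL37 vs control (adjusted p = 1.31e-05), and 0.07 ± 0.21 between LL37 and LL37 + RAPA (adjusted p = 0.833). Both groups given LL37 thus lay far below control, with or without rapamycin. Muscle genes were also low in both of these groups, and their part in the Chac1 level was not tested.

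**Figure D5:**
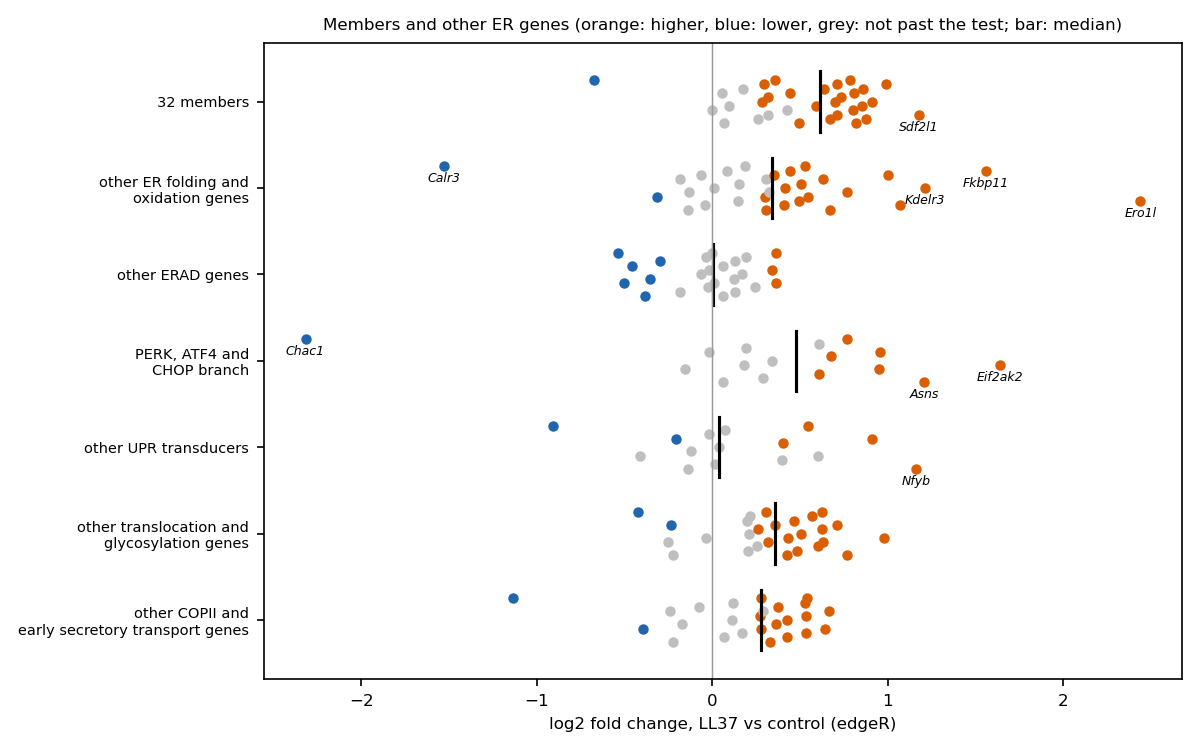
Log2 fold change in LL37 vs control for the 32 members and the tested genes of 6 other ER lists, 1 point per gene (orange for higher and blue for lower at an adjusted p under 0.05, grey for the rest), with black bars for the medians. The members' median is at 0.62, and Ero1l at 2.44 and Chac1 at −2.32 lie farthest out.

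Against LL37 + RAPA, 26 of the 139 tested pathway genes were higher in LL37 and 6 lower, where 11.8% of all genes were called higher and 12.4% lower. In the PERK, ATF4 and CHOP list the numbers were 7 and 0 of 16, among them Asns (2.24-fold) and Eif2ak2 (log2 fold change 1.57 ± 0.22). In the list of other folding and oxidation genes they were 3 and 3 of 32, not above those shares. Nfyb was at 30.8, 37.8 and 32.6 CPM in LL37 + RAPA, a difference from LL37 of 1.13 ± 0.24 (adjusted p = 0.00761, edgeR).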

How the data were processed

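Counts per gene were deposited by the authors for 12 skin libraries, without normalization and without pooling of replicates. Per the submitters' processing notes, reads were handled with HISAT2 2.0.5, StringTie 1.3.3b, featureCounts 1.5.0-p3 and DESeq2 1.16.1 on build mm10, whereas the methods of the paper name HTSeq 0.6.0 for counting, and a strand setting is not given in the sources used here. A tool that leaves out reads shared by overlapping genes lowers the count of both. Exons of several pathway genes also overlap protein-coding genes on the other strand, among them Serp1, Arf4, Kdelr3 and Ddit3. Gene names, positions and exon lengths came from GENCODE M21 and promoter windows from RefSeq (GRCm38.p6), both the same genome as mm10. Libraries held 15734559 to 23271784 counts, and 3 counts correspond to 0.123 to 0.184 CPM.

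All 12 libraries were fitted together in R 4.3.3 with edgeR 4.0.16 (TMM, filterByExpr by group, quasi-likelihood F-test), and a gene was called at a Benjamini-Hochberg adjusted p under 0.05 over 17993 genes. The SE is the absolute log2 fold change over the root of F. Each p-value sets a difference between groups against the spread between libraries within groups, as estimated in this joint fit. The fit was tested on simulated data with log2 changes of 1 and 2 in LL37. At a size of 1, edgeR recovered 81 of 100 changed genes in LL37 vs control, but 48 of 100 as an interaction. Smaller changes were not simulated. The members, the lists and the motifs were chosen with earlier results of these data known. All 32 members are named. Values in every library are given for Hspa5, Hsp90b1, Xbp1, Ern1, Eif2ak3, Atf6, Derl3, the 4 members with the largest change in each direction and at most 8 members changed under rapamycin. From each pathway list the 3 changed genes with the largest log2 fold change were named, with 9 others set in advance, and values of further members by library were added after they were seen. Alternatives were other normalizations and filters, DESeq2 1.42.0, the compared groups alone, a replicate block, other thresholds and each library left out. Protein sequences were not analysed here.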

Additional observations from a re-analysis of the deposited data

Results flagged for a closer look

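For 3 of the 139 tested genes of the wider ER pathway the effect of rapamycin differed between LL37-injected and control skin by edgeR's interaction test. For 0 of the 32 members it did. Over all genes tested 590 of 17993 (3.28%) were called, so the count of pathway genes is not above that share. For Ero1l the interaction was −1.73 ± 0.26 on the log2 scale (SE, adjusted p = 0.0194). Its mean fell from 102 to 26.3 CPM with rapamycin in LL37 skin, and was 18.8 CPM in control and 16.0 CPM in control + RAPA. For Calr3 the interaction was 1.23 ± 0.29 (adjusted p = 0.0429), from means of 1.43 CPM in LL37 and 3.46 CPM in LL37 + RAPA against 4.16 and 4.27 CPM in the control groups. Sesn2, of the PERK, ATF4 and CHOP list, was named here after its values were seen. Its interaction was −0.93 ± 0.17 (adjusted p = 0.0234), from means of 49.3 CPM in LL37 and 28.5 CPM in LL37 + RAPA against 25.3 and 27.9 CPM in the control groups.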

How the results depend on the processing

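Over 20 alternative fits, 18 of 24 members called in LL37 vs control and 2 of 10 called in LL37 vs LL37 + RAPA kept their call in each. No called value changed sign. In 34 cases a log2 fold change called neither way changed sign, in 7 genes with a size of at most 0.23. In LL37 vs control, 18 to 24 members were higher with 1 library left out, and with a limit of 1 on the log2 fold change 1 was higher and 0 lower. In LL37 vs LL37 + RAPA, the 9 higher members became 5 by library size only, 14 by DESeq2, 2 with the compared groups only, 19 at an unadjusted p, 0 with the fold limit (and 0 lower) and 1 to 21 with 1 library left out. In LL37 + RAPA vs control, the 3 became 13 by library size only, 5 with 10 counts in every library, 8 by DESeq2, 9 with the compared groups only, 13 at an unadjusted p, 0 with the fold limit and 1 to 11 with 1 library left out. The 0 interactions became 1 by library size only (Herpud1), 3 by DESeq2, 4 at an unadjusted p and 0 to 4 with 1 library left out. Calls over all genes moved too. With 1 library left out, 2819 to 4541 genes were called higher in LL37 vs control. The range was 896 to 3200 in LL37 vs LL37 + RAPA and 313 to 1563 in LL37 + RAPA vs control. An unadjusted p under 0.05 was met by 6839 genes in LL37 vs LL37 + RAPA, in either direction. Scaling by library size only shifted the median of all genes by 0.08 in LL37 vs control, −0.04 in LL37 vs LL37 + RAPA and 0.13 in LL37 + RAPA vs control. Without muscle genes the share of counts on the members in control rose to 0.425%. The cause of these shifts was not tested.

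With the replicate number as a replicate block, 22, 7 and 1 members were higher in the 3 comparisons in the order above. Over all genes 3666, 1837 and 742 were higher. Same-numbered libraries correlated between −0.19 and 0.26 in their deviations from the group means, so the numbers were not taken to pair the samples. Values near 1 CPM, such as those of Derl3, rest on few counts.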

Other observations

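A group of folding genes outside the 32 members was higher in LL37 + RAPA skin than in control. Of 32 tested genes of the list of other folding and oxidation genes, 12 were higher and 0 lower (edgeR, adjusted p under 0.05), where 5.03% of all genes were called higher; the median log2 fold change of the 32 was 0.27, beside 0.00 over all genes tested. Serpinh1 (HSP47, a chaperone of collagen) was at 195, 139 and 149 CPM in control, at 309.7, 345 and 310.1 CPM in LL37 and at 213, 356 and 302 CPM in LL37 + RAPA. The groups given LL37, with or without rapamycin, overlapped for Serpinh1, and both lay above control (log2 fold changes 1.00 ± 0.19 and 0.85 ± 0.19). Fkbp10, a prolyl isomerase that acts on collagen, was at 31.5, 21.6 and 22.9 CPM in control, at 48.2, 57.7 and 53.6 CPM in LL37 and at 47.5, 58.0 and 57.4 CPM in LL37 + RAPA (1.10 ± 0.15 in LL37 + RAPA vs control, adjusted p = 0.000488), and its exons overlap Nt5c3b on the other strand. These genes were named after their values were seen. Collagen and fibroblast genes summed to 3044 to 6554 CPM in control and 5072 to 7341 CPM in LL37 + RAPA, with 1 of 10 called higher, and their part in these levels was not tested.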
